A study of Homo sapiens and Mus musculus with 61 samples.

Results

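The regions described here are the 316 places in the K562 genome, outside the beta-globin cluster, that were raised over the non-targeting control in at least 5 of 17 tables of targeting guides. Each of the 17 tables compares the libraries of 1 targeting guide group with the same 4 sgGal4 libraries over windows of 300 bp. A window counted as raised where the log2 of its mean linear level in the guide libraries over its mean linear level in the sgGal4 libraries was 1 or more (a log2 ratio). Raised windows outside the cluster (130 kb of hg19 chromosome 11 from position 5.2 Mb) that shared at least 1 bp were merged over tables, which gave 18198 merged regions, and the 316 that drew on 5 or more tables (1.74%) were kept. These regions were thus chosen by the measured guide-to-sgGal4 ratio, and every ratio, read number and count of tables below is a description without a test.

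K562 is a human chronic myelogenous leukaemia line with erythroid features and an amplified BCR-ABL1 fusion. In the CAPTURE method the cells carry a catalytically inactive Cas9 (dCas9) that bears a biotin tag, a guide RNA brings it to its site, and streptavidin beads pull down the DNA it occupies. All groups share the biotinylated dCas9 and differ in the guide. The first guides were sgHBB, sgHBG, sgHBD-1kb, sg3'HS1, sgHS1, sgHS2, sgHS3, sgHS4 and sgHS5, the second guides were sgHBB-sg2, sgHBG-sg2, sgHS1-sg2, sgHS2-sg2, sgHS3-sg2, sgHS4-sg2 and sgHS5-sg2, and sgHS1-5 is named for HS1 to HS5 together, so that tables and single guides do not match one to one. The labels of the sgHBG-sg2 samples name the sgHBG table, but the sgHBG-sg2 table has columns with their names, and these were used. HS1 to HS5 are the DNase hypersensitive sites of the locus control region upstream of the globin genes, 3'HS1 lies on the other side of the cluster, and HBB, HBG and HBD are globin genes. sgGal4 was the guide without a target. There were 42 guide libraries, between 1 and 6 in a group, and 4 sgGal4 libraries. sgHBB, sgHS2-sg2 and sgHS3-sg2 had 1 library each, so their values have no replicate. The labels number the replicates without saying whether they came from separate cultures. The tables hold occupancy at regions and no expression, so the cell line was not checked against marker genes.

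Most housekeeping promoters in mammals lie in CpG islands, stretches rich in G, C and the CG dinucleotide that stay free of methylation, hold open chromatin and often start transcription without a TATA box. CG pairs elsewhere in the genome are methylated and depleted. The sequences of 8 regions are printed to show this character, as stretches that carry no annotated exon, on the plus strand of GRCh37 (hg19), with each CG pair in capitals. The first 5 belong to the regions raised in the most tables, and PGK1 is the vector promoter and CTCF the architectural factor of the gene lists below. TRIP13 is named for the nearest start of a region far from any protein-coding start, shown for contrast.
GAS8, chr16:90088810-90089007: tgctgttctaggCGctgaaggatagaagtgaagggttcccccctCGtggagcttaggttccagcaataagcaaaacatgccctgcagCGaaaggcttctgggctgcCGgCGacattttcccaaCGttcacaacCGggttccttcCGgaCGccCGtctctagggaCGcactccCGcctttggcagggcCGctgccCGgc
CARM1, chr19:10981826-10982025: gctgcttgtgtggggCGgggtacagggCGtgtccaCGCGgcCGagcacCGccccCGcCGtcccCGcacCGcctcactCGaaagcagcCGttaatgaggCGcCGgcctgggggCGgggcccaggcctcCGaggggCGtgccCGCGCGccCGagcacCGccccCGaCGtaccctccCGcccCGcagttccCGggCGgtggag
FRG1, chr4:190861889-190862024: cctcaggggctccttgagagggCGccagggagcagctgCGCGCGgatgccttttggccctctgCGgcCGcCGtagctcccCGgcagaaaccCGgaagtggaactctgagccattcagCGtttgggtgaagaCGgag
CDK5RAP3, chr17:46048173-46048372: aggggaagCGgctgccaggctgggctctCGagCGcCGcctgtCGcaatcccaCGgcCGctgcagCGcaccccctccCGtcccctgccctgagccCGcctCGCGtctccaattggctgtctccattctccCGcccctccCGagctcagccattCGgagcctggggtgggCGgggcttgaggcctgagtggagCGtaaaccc
PAIP2, chr5:138677670-138677869: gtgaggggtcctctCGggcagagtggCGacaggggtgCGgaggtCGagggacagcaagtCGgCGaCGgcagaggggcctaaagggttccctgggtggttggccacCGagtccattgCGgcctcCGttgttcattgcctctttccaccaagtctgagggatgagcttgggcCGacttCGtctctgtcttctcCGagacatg
PGK1, chrX:77359477-77359676: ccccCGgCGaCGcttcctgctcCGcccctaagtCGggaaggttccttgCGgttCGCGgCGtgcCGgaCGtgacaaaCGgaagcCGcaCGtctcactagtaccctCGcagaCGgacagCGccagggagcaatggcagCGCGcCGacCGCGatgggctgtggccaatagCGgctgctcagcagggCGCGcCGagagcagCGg
CTCF, chr16:67596213-67596369: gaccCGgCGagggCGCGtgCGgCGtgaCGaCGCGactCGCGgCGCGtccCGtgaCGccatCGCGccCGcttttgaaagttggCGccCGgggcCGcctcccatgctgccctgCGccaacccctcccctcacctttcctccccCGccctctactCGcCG
TRIP13, chr5:923597-923796: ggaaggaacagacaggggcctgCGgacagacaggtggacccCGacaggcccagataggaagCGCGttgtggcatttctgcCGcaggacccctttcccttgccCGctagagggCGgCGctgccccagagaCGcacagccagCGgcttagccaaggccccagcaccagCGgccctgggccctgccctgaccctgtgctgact
The CARM1 stretch held 28 CG pairs and 6 copies of GGGCGG, the core letters that SP and KLF factors bind, on either strand in 200 bases. PGK1 held 27 CG pairs and 1 GGGCGG in 200 bases, CTCF held 25 CG pairs in 157 bases, and GAS8, PAIP2 and FRG1 held no GGGCGG in the stretches shown. TRIP13 held 11 CG pairs in 200 bases at a GC content of 68.0%, a lower CG count than CARM1 or PGK1 in a stretch of like GC content to PGK1 (69.5%). Its count was close to those of PAIP2 (13 in 200 bases, 62.5% GC) and GAS8 (14 in 198 bases, 60.6% GC).

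The count of regions fell with every further table. There were 14221 merged regions raised in 1 table, 2589 in 2, 740 in 3 and 332 in 4. Of the 316, 171 were raised in 5 tables, 82 in 6, 41 in 7, 13 in 8, 5 in 9 and 4 in 10, and no merged region was raised in more than 10. Just inside the limit, the 171 regions of 5 tables had mean log2 ratios over their raised tables of 1.13 to 2.97 with a median of 1.48, and just outside it the 332 regions of 4 tables ran from 1.09 to 2.47 with a median of 1.44. The 316 were 300 to 1120 bp wide (median 490 bp), and in 269 of them raised windows of 5 or more tables shared a base. They were listed in 5 to 17 tables each (median 7), and 87 were raised in every table that listed them.

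**Figure D1:**
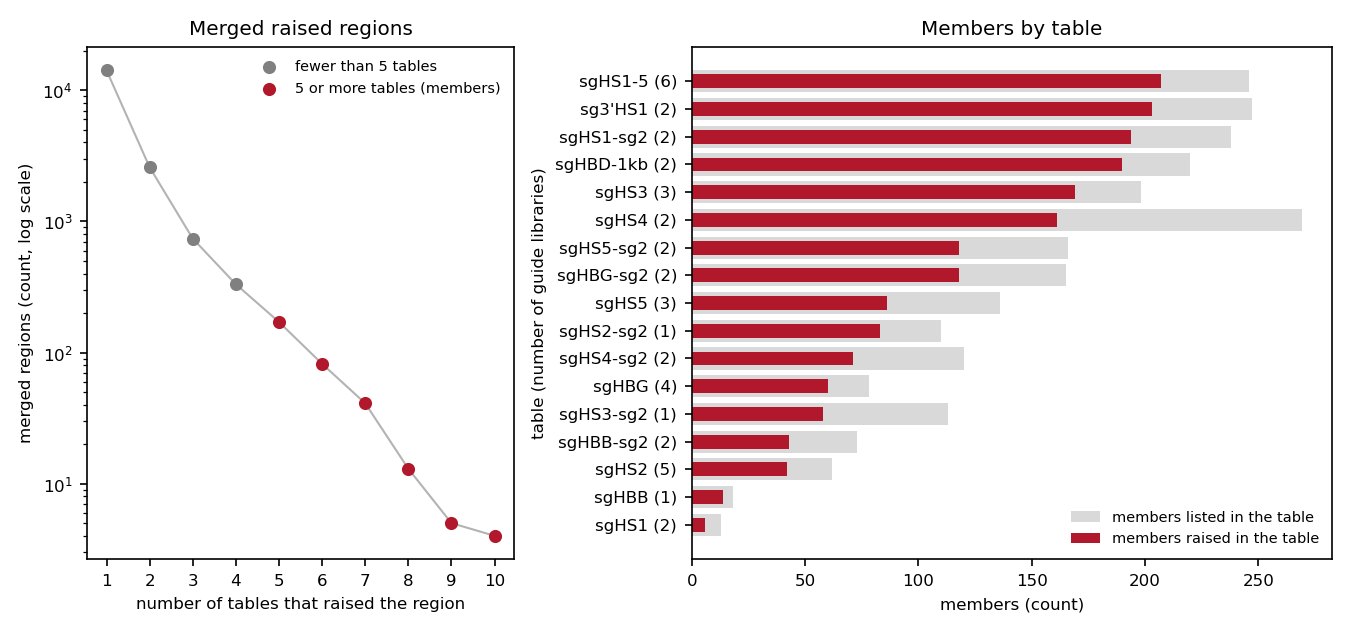
Left, merged raised regions (count, log scale) by the number of tables that raised them, with the 316 members in red. Right, members listed (grey) and raised (red) in each table, with the number of guide libraries in parentheses; sgHS1-5 and sg3'HS1 raised 207 and 203, sgHBB and sgHS1 raised 14 and 6.

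The tables contributed unequally. The table of sgHS1-5 raised 207 of 246 listed members, where 21.1% of all its regions were raised. The sg3'HS1 table raised 203 of 247 (30.6% of all regions), sgHS1-sg2 raised 194 of 238 (16.8%) and sgHBD-1kb raised 190 of 220 (30.1%). These 4 tables each raised at least 60.1% of the 316. sgHS3 raised 169 of 198 listed members (24.4% of all regions) and sgHS4 161 of 269 (12.6%). sgHBG-sg2 raised 118 of 165 (11.3%), sgHS5-sg2 118 of 166 (11.1%) and sgHS5 86 of 136 (17.1%). A middle group of tables raised between 42 and 83 members. In it, sgHS2-sg2 raised 83 of 110 (27.2%), sgHS4-sg2 71 of 120 (6.32%) and sgHBG 60 of 78 (13.7%). sgHS3-sg2 raised 58 of 113 (9.55%), sgHBB-sg2 43 of 73 (3.87%) and sgHS2 42 of 62 (5.39%). The sgHBB and sgHS1 tables listed few members: 14 of 18 were raised in the first (18.3% of all regions) and 6 of 13 in the second (1.95%). Both first and second guides raised 292 of the 316, and 5 were raised with no first guide. With 9 first-guide and 7 second-guide tables, a region that must be raised in 5 or more will often draw on both. The same share was not computed for other regions, so nothing is read from it. Of the listed regions of all tables, 17.3% were raised. Since the rule used these same contrasts, nothing is read from the higher shares among the members.

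Members were raised often but not steeply. The 1823 raised values of members had a median log2 ratio of 1.42 and 87.1% of them lay between 1 and 2. All raised regions outside the cluster had a median of 1.41. Large ratios made up a smaller share among the members: 12.9% of their raised values reached 2 and 2.03% reached 3, while 18.6% and 4.74% of all raised regions did. The mean ratio of a member over its raised tables ran from 1.10 to 2.97 with a median of 1.48. A further 649 values came from tables that listed a member without raising it. Of these, 611 lay between 0 and 1 and 38 below 0, and 11 values at -1 or lower came from 2 members alone, those nearest to the starts of CSF3 and CHST2.

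Position and sequence played no part in the rule. A region counted as near a start when its middle lay within 1 kb of the start of a protein-coding transcript in GENCODE release 44 on hg19, and all distances are taken from the middle. Of the 316, 243 (76.9%) were near a start, 15 lay in other exons, 14 in introns and 44 between genes. Exons, introns and genes here are those of protein-coding transcripts only, so non-coding genes were not counted. The median distance to a start was 140.5 bp. Loci listed in 5 or more tables that held no member numbered 6841, and 34.2% of these were near a start with a median distance of 8512 bp. Among the 6841, those raised in no table were near a start in 22.7% of cases and those raised in 1 to 4 tables in 62.1%. The share rose with the number of tables over the low counts, from 26.9% of regions raised in 1 table to 42.8% in 2, 63.2% in 3, 67.8% in 4 and 76.0% in 5, and it did not rise steadily beyond that: 75.6% in 6, 85.4% in 7 and 72.7% of the 22 raised in 8 or more. Of the 243, 32 (13.2%) lay where protein-coding starts point in opposite directions, close to the 12.5% of the other loci near a start.

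**Figure D2:**
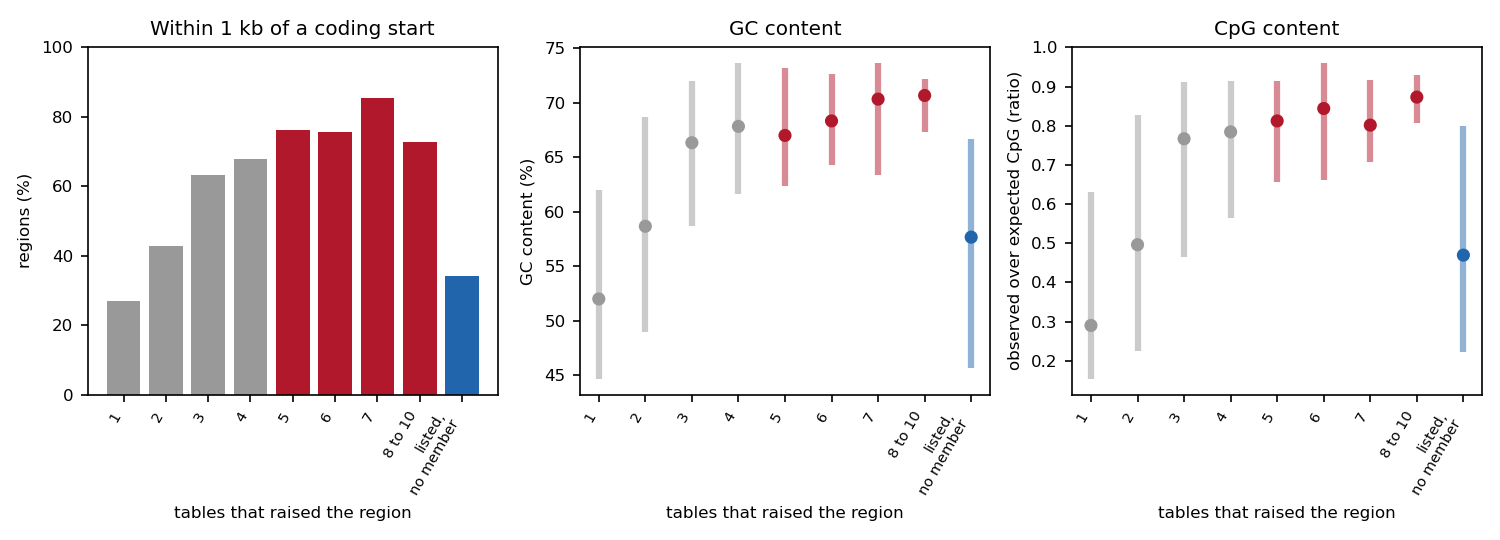
Share of regions within 1 kb of a coding start (bars), GC content and observed over expected CpG (points are medians, lines the quartiles) by number of tables that raised the region; grey, fewer than 5 tables, red, members, blue, the 6841 other loci listed in 5 or more tables. The near-start share went from 26.9% in 1 table to 76.0% in 5, against 34.2% in the blue group.

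Base composition followed the same order. The median GC content of the window with the highest ratio was 68.3% in members, 57.7% in the other loci listed in 5 or more tables and 51.7% in all 44667 listed loci. The ratio of observed to expected CG pairs, low where methylation has depleted them and higher in CpG islands, had medians of 0.82, 0.47 and 0.31 in these 3 sets. With a CpG-island-like window defined as at least 50% GC and a ratio of at least 0.6, 262 members (82.9%) qualified, against 40.1% of the other loci and 26.1% of all. Much of this went with the starts: among regions near a start 93.8% of members and 86.1% of the other loci were CpG-island-like. The contrast also varied with the number of tables that listed a locus. CpG-island-like were 76.7% of members and 63.5% of the other loci listed in 5 or 6 tables. The shares were 85.4% and 73.0% for 7 to 9 tables, and 87.1% and 22.2% for 10 or more. Of all loci listed in 5 or more tables, members made up 10.2% of those both near a start and CpG-island-like (228 of them), 4.40% of those only near a start, 4.46% of those only CpG-island-like and 1.02% of those that were neither.

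Short motifs were counted as exact letters on both strands of that window. GGGCGG, which can be read from GC-rich sequence of any kind, was found in 244 members (77.2%), 36.7% of the other loci listed in 5 or more tables and 27.2% of all listed loci. Near a start the shares were 82.3% and 69.9%. The erythroid GATA motif AGATAA was found in 14 members (4.43%), against 12.9% and 17.2%, and TGATAA in 3.80%, against 9.46% and 12.4%. Near a start AGATAA was found in 2.06% of members and 4.41% of the other loci, while TGATAA was slightly more frequent in members (3.29% and 2.82%). TATAAA, the TATA box, was found in 2.53% of members against 11.6% and 12.5%, and near a start in 1.65% and 2.78%. CCAAT, the NFY motif, was found in 25.3% of members and in 28.6% and 30.6% of the comparison sets, and near a start the order turned, with 29.6% of members and 25.7% of the other loci. CCGGAAGT, bound by ETS factors at many promoters, was found in 6.65%, against 3.39% and 1.85%, and near a start the shares were 8.64% and 8.47%. The longer NRF1 motif was found in 7 members (2.22%, against 0.88% and 0.49%), and the AP-1 letters TGACTCA in 12 (3.80%, against 4.74% and 9.02%). The CTCF, YY1 and NFE2 motifs were found in 2 members each (0.63%), where the other loci listed in 5 or more tables had 0.03%, 0.60% and 0.26%.

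The 4 sgGal4 libraries differed in depth and the members stood low in all of them. Over the listed regions of a table, sgGal4 replicates 1 and 2 held 41128 to 169968 reads and replicates 3 and 4 held 6499 to 18647, while guide libraries held 7127 to 432553. In the window with its highest ratio a member had a median of 2 reads in sgGal4 replicate 1, 4 in replicate 2, 0 in replicate 3 and 0 in replicate 4. Both shallow libraries were at 0 in 173 members (54.7%), against 14.3% of the other loci listed in 5 or more tables, and all 4 libraries had a read in 23 members (7.28%), against 42.7%. Ranked within each library, the members raised in a table stood at a median percentile of 81.1 over the 42 guide libraries (range 51.1 to 97.9) and of 18.0 over the 68 sgGal4 columns (2.73 to 44.1). The other loci stood at 40.3 and 54.8. In the sgHS1 table, members and other loci stood level in sgGal4 replicates 3 and 4, at 44.1 and 42.4. They were also level in sgHS1-5 guide replicates 3 and 4, at 51.1 and 51.5. The rule used both levels, so these ranks describe the members and support nothing further.

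**Figure D3:**
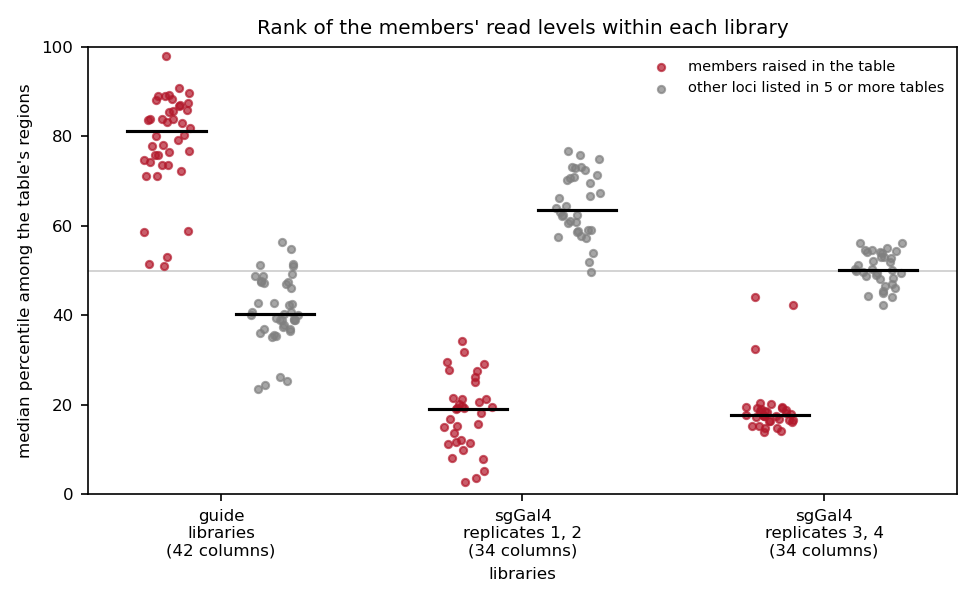
Median percentile of read level among a table's regions, 1 point per library column, for members raised in the table (red) and other loci listed in 5 or more tables (grey); black lines are medians over columns. Members stand above 50 in 42 of 42 guide columns and below 50 in all 68 sgGal4 columns.

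The near-start share was read again within bands of these values. Where both shallow sgGal4 libraries were at 0, 78.0% of 173 members and 49.4% of 979 other loci were near a start, and where either had a read the shares were 75.5% of 143 and 31.6% of 5862. By number of tables listing the locus, the shares were 79.6% against 55.0% for 5 or 6 tables, 75.5% against 64.6% for 7 to 9, and 75.8% against 18.0% for 10 or more. The members' share was the higher in each of these bands, and the gap was smallest for loci listed in 7 to 9 tables.

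Agreement between libraries was limited. Of 1668 raised values of members from tables with at least 2 guide libraries, 1050 (62.9%) had every guide library above every sgGal4 library. This ordering was found in 12.6% of all listed regions of those tables and in 55.6% of their raised regions. It is an ordering of log2 levels, in which a library with 0 reads can lie above one with reads. In the sgHS1-5 table at ZNF8, guide replicate 4 with 0 reads stood at 3.70. There sgGal4 replicate 2 with 4 reads stood at 2.61. The ratio stayed at 1 or more whichever guide library was left out in 993 of the 1668 (59.5%), and whichever sgGal4 library was left out in 1292 of all 1823 (70.9%). These shares were not computed over all raised regions, so they do not set members apart from other raised regions. By member, 79 had the full separation in 5 or more of their raised tables, 226 in 1 to 4 and 11 in none. Since the 17 tables share their controls, a low sgGal4 value at a region enters every table, and the number of tables is not a number of independent observations. The count of 316 moved with these libraries: it was 193 without sgGal4 replicate 1, 180 without replicate 2, 643 without replicate 3 and 666 without replicate 4, and 10 regions remained when only windows with a read in every sgGal4 library could count. Of these 10, 6 were near a start.

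The 4 regions raised in 10 tables all lay near a start. The first, chr16:90088810-90089157, lies 25 bp from a start of GAS8, which encodes a subunit of the dynein regulatory complex of motile cilia, and 266 kb from the chromosome end. It was raised in 10 of 11 tables with a mean log2 ratio of 2.78, the highest mean of the 10 regions raised in the most tables. The 2 sgHBD-1kb libraries held 115 and 70 reads, the 6 sgHS1-5 libraries held 183, 297, 2, 2, 40 and 63, and the single sgHS3-sg2 library held 112. sgGal4 replicates 1 to 4 held 1 to 5, 11 to 14, 0 and 1 reads over the tables. The log2 ratios were 4.13 for sgHBD-1kb (SD of the guide log2 levels 0.25, n = 2), 3.47 for sgHS1-5 (SD 1.48, n = 6) and 3.50 for sgHS3-sg2. sgHS5, with 2, 19 and 23 reads, was the table that did not raise GAS8, at 0.25. Every guide library lay above every sgGal4 library in 6 of the 9 GAS8 tables with at least 2 guide libraries; in sgHBG-sg2, sgHBG and sgHS5 they overlapped.

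The region at chr19:10981601-10982250 lies 304 bp from a start of CARM1, an arginine methyltransferase that acts as a coactivator, and had 78.0% GC. It was raised in 10 of 11 tables with a mean of 1.77. Its highest value came from sg3'HS1, where the libraries held 69 and 3 reads (log2 ratio 3.28, SD 1.41), followed by sgHS1-sg2 with 30 and 47 reads (2.86). sgGal4 held at most 8 reads in CARM1 windows. The guide libraries overlapped the control libraries in 4 of 10 tables with at least 2 libraries, among them sgHS1-5, whose libraries held 13, 28, 0, 2, 19 and 8 reads.

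The region at chr4:190861693-190862123 lies 117 bp from a start of FRG1, a gene near the end of the long arm of chromosome 4 and 292 kb from it, named for facioscapulohumeral dystrophy. It was raised in 10 of 12 tables and its ratios were modest and even, from 0.87 to 2.16 with a mean of 1.57 over the raised tables. FRG1 is the member whose libraries separated most often: every guide library lay above every sgGal4 library in 11 of 11 tables with at least 2 libraries. This holds for log2 levels and not for reads scaled to library depth. Per 100000 reads, sg3'HS1 replicate 2 held 10.2 at FRG1 and sgGal4 replicate 2 held 11.2. In the sgHBD-1kb table, guide replicate 2 held 7.20 and sgGal4 replicate 2 held 10.6. sgHS5 libraries held 21, 42 and 27 reads (2.16, SD 0.44), the sgHS4-sg2 libraries 17 and 21 (2.01, SD 0.52) and the sgHBB-sg2 libraries 11 and 9 (1.02, SD 0.57). sgGal4 replicates 1 to 4 held 0 to 2, 3 to 12, 0 and 0 reads there.

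The region at chr17:46048052-46048494 lies 206 bp from a start of CDK5RAP3, a protein of the UFM1 modification pathway. It was raised in all 10 tables that listed it, at 1.04 to 2.21, on few control reads: sgGal4 replicates 1, 2 and 4 held 0 or 1 and replicate 3 held 2. The sgHS3 libraries held 4, 15 and 23 reads (2.21, SD 1.51) and those of sgHS5 13, 47 and 21 (1.62, SD 0.22). In the sgHS3 table the 2 reads of the shallow replicate 3 stood at a CDK5RAP3 log2 level of 3.71 and the 4 reads of the deeper guide replicate 1 at 2.32. The guide libraries overlapped the controls in 9 of the 10 CDK5RAP3 tables. Without sgGal4 replicate 1 or replicate 2, CDK5RAP3 was raised in 5 tables.

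Of the 5 regions raised in 9 tables, 4 were near a start. The VPS37D region at chr7:73081921-73082338, near the gene of an ESCRT-I subunit, had the highest GC content of these (84.7%), was raised in all 9 tables that listed it at 1.33 to 2.43, and separated from the controls in 8 of 9. Its sgHS5-sg2 libraries held 27 and 19 reads against 1, 5, 0 and 0 in sgGal4 (2.43, SD 0.09). The PAIP2 region at chr5:138677227-138677923, 8 bp from a start of the gene for an inhibitor of poly(A)-binding protein, was raised in 9 of 11 tables. In its sgHS2 table the guide libraries held 17, 3, 8, 12 and 20 reads and the sgGal4 libraries 1, 0, 0 and 0 (2.62, SD 0.30), with no overlap, but over its tables with at least 2 guide libraries PAIP2 separated in 5 of 9. The region at chr19:49122286-49123054, 37 bp from a start of SPHK2, a sphingosine kinase, also lies near starts of RPL18, the gene of a protein of the large ribosomal subunit. It was raised in 9 of 11 tables, highest in sg3'HS1 with 47 and 9 reads against 7, 3, 0 and 0 (2.71, SD 0.21), and separated in 7 of 10. METTL13, a methyltransferase of elongation factor 1A, was raised in all 9 tables that listed it, and its sgHS3 libraries held 10, 19 and 29 reads against 3, 14, 0 and 1 in sgGal4 (2.17, SD 1.02). METTL13 separated in 3 of 7 tables with at least 2 guide libraries. Without the guide libraries numbered 1, which removes the 3 tables with a single library, METTL13 was raised in 4 tables, and without sgGal4 replicate 1 in 5. The remaining region, chr10:43950914-43951391, lies in an intron 18546 bp from the nearest start, that of the zinc finger gene ZNF487. It was listed in 15 tables and raised in 9, with 6 to 11 reads in sgGal4 replicate 1 and 5 to 10 in replicate 2. Its ratios ran from 0.30 for sgHS2 to 2.27 for sgHS3, and ZNF487 separated in 5 of 13 tables with at least 2 guide libraries.

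The tenth region by number of tables, chrX:77359346-77359808, lies 168 bp from a start of PGK1, a glycolytic kinase whose promoter is widely used in expression vectors. It was raised in 8 of 12 tables with a mean log2 ratio of 2.15, and the SD between its libraries reached 3.75, the highest among the 10 regions raised in the most tables. The 5 sgHS2 libraries held 1, 423, 3, 0 and 6 reads (log2 ratio 4.03, SD 3.75) and the 3 sgHS3 libraries 6, 278 and 6 (3.68, SD 3.15). In the second guides replicate 1 was high and replicate 2 low: 73 and 2 reads for sgHBB-sg2, 84 and 5 for sgHBG-sg2, 94 and 11 for sgHS1-sg2, 47 and 3 for sgHS4-sg2, 75 and 2 for sgHS5-sg2. sgGal4 replicates 1 and 2 held 0 reads, replicate 3 held 7 or 8 and replicate 4 held 1. Guide and control libraries overlapped in 12 of 12 PGK1 tables. Without the guide libraries numbered 1, PGK1 was raised in 3 tables.

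**Figure D4:**
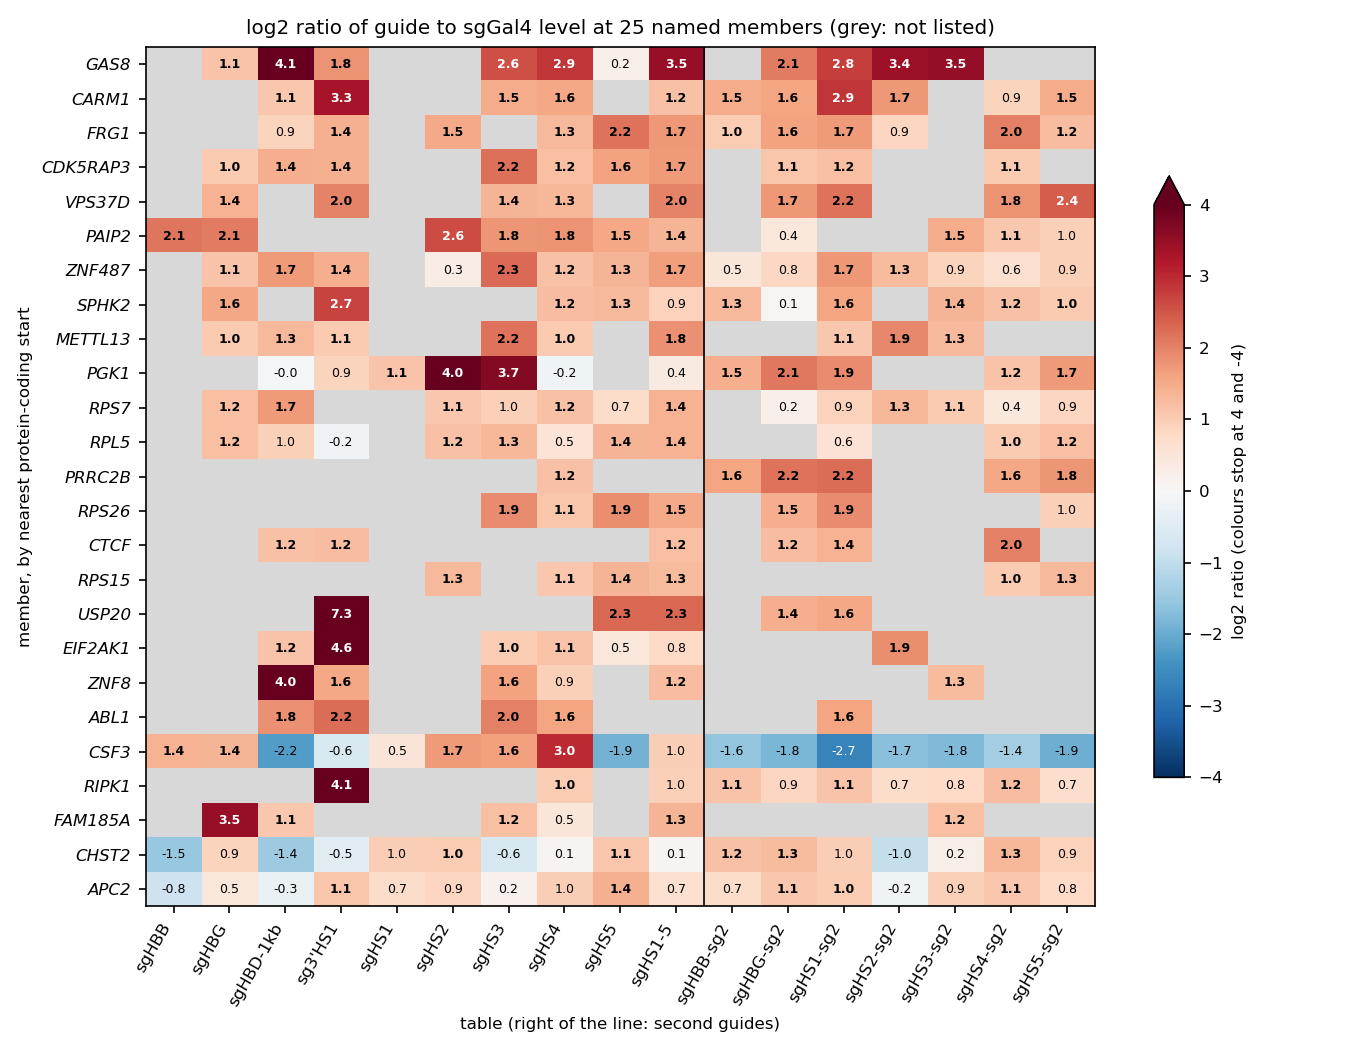
log2 ratio of guide to sgGal4 level (colour and number, bold at 1 or more) for 25 named members (rows, by nearest start) in the 17 tables (columns, second guides to the right of the line; grey, not listed). GAS8 and PGK1 reach about 4 in single tables, FRG1 stays between 0.87 and 2.16, and CSF3 is raised in 5 first-guide tables and at -1.38 or lower in the 7 second-guide tables.

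In most members no single table stood out. The highest table exceeded the next by less than 0.5 in 234 of the 316 (median gap 0.26) and by 1 or more in 32. The rule asks for ratios of 1 or more in at least 5 tables, which in itself limits this gap. The gap was not computed for other regions, so it does not set members apart. The members with the widest gaps, named after their values were seen, were raised far more by 1 guide than by the others. The ratios of the others were not all low, and reached 2.30 at USP20. The largest gap belonged to the member with the highest mean ratio, chr9:132625291-132625748, in an exon 27762 bp from the nearest start, that of the deubiquitinase gene USP20. Its sg3'HS1 libraries held 1205 and 241 reads against 2, 8, 0 and 0 in sgGal4 (7.28, SD 0.68). This was the highest ratio of all 10714 regions in that table, those in the cluster included. The other 4 tables gave 1.44 to 2.30, and all 5 separated guide from control libraries. EIF2AK1 names a region 22442 bp from the start of this haem-regulated kinase gene, where sg3'HS1 libraries held 222 and 31 reads (4.61, SD 0.75) and the next table gave 1.86. At the start of RIPK1, a kinase of cell death signalling, sg3'HS1 libraries held 111 and 23 reads (4.10, SD 0.30), and the next gave 1.25. For sgHBD-1kb the ZNF8 region held 68 and 50 reads (4.05, SD 0.05), and for sgHBG the FAM185A region held 31, 15, 34 and 72 (3.48, SD 0.17). Over their tables with at least 2 guide libraries, guide and control libraries separated by log2 level in 5 of 5 for ZNF8, 3 of 6 for EIF2AK1, 1 of 8 for RIPK1 and 1 of 5 for FAM185A. The authors tagged 34 of the 143149 listed regions outside the cluster as off-target and 0 of the 316 members overlapped one; with so few tagged regions, nothing is read from this count.

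The 3 members listed in all 17 tables, also named after their values were seen, went from below 0 with some guides to above 1 with others. The CSF3 region, chr17:38173661-38174046, lies in an exon 2113 bp from the start of the gene for granulocyte colony-stimulating factor. First guides raised it in 5 of 9 tables, led by sgHS4 with 10 and 604 reads (3.0, SD 3.73) and sgHS2 with 80, 4, 3, 35 and 76 (1.70, SD 1.15). None of the 7 second guides raised it: their libraries held 0 to 5 reads and gave -2.68 to -1.38, against 14 and 19 reads in sgGal4 replicates 1 and 2. The first guides sgHBD-1kb and sgHS5 were low in CSF3 as well, at -2.24 and -1.89. Every guide library lay above every sgGal4 library in 0 of the 14 CSF3 tables with at least 2 guide libraries. The sgHBB table, which raised CSF3, had 1 guide library. The same ordering was found in 6 of 14 such tables for CHST2 and 9 of 14 for APC2. CHST2, named for a sulfotransferase gene, ranged from -1.53 in sgHBB to 1.32 in sgHS4-sg2, and APC2 from -0.83 in sgHBB to 1.43 in sgHS5. sgGal4 replicate 2 held up to 28 reads in CSF3 and up to 41 in CHST2, where it held at most 14 in GAS8.

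Gene lists were read for members. Only a locus listed in 5 or more tables could be a member, and of all 2581 such loci near a start 9.41% were. Among the 86 ribosomal protein genes, 73 had a listed locus within 1 kb of a start, 38 such loci were listed in 5 or more tables, and 5 were members: RPL18, RPL5, RPS7, RPS15 and RPS26. RPS26 had the highest mean ratio of the 5 (1.62, raised in 6 of 7 tables) and RPS15 the lowest (1.22, raised in 6 of 6). RPL5, raised in 7 of 11 tables at up to 1.39, was also among the 10 regions left when a read was asked of every sgGal4 library. Of the architectural and cohesin genes, CTCF was the 1 of 7 with a member, from 2 loci listed in 5 or more tables. At chr16:67595885-67596440 CTCF was raised in all 6 tables that listed it; its sgHS4-sg2 libraries held 11 and 19 reads against 2, 1, 0 and 0 in sgGal4 (2.03, SD 0.84). PGK1 was the 1 of 7 genes of the vector-promoter list, from 6 such loci. The 20 highly transcribed housekeeping genes had 8 loci listed in 5 or more tables, the 15 erythroid regulators 2, the 5 alpha-globin genes 1 and the 85 histone genes 4, and none was a member. With so few loci that could have been, nothing is read from these counts of 0.

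Because K562 carries an amplified BCR-ABL1 fusion, loci within 1 Mb of the BCR and ABL1 starts were listed apart. This distance reaches to both sides of each start, and which of these loci lie in the amplified part was not determined. Around ABL1, 44 loci were listed, 10 of them in 5 or more tables, and 3 were members: PRRC2B, USP20 and ABL1. Of all 7157 loci listed in 5 or more tables, 4.42% held a member. ABL1, the tyrosine kinase of the fusion, was raised in all 5 tables that listed it at 1.56 to 2.24, and PRRC2B in all 6 at 1.16 to 2.23. The sg3'HS1 libraries held 19 and 3 reads in the ABL1 region against 0, 2, 0 and 0 in sgGal4 (2.24, SD 0.13). Around BCR, none of 57 listed loci was a member, and 12 of them were listed in 5 or more tables. Copy number was not measured here and its part in these counts was not tested.

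Members lay on every chromosome from 1 to 22 and on X. Chromosome 1 held 48 (15.2% of members, against 13.0% of the other loci listed in 5 or more tables), chromosome 19, which is gene-rich and GC-rich, held 38 (12% against 7.37%), and chromosome 6 held 25 (7.91% against 6.17%). Relative to the other loci, the share was furthest above on X, with 8 members (2.53% against 0.83%), and furthest below on chromosome 22, with 1 (0.32% against 1.84%), and chromosome 14, with 2 (0.63% against 1.94%). Within 500 kb of a chromosome end lay 11 members (3.48%, against 1.45%), GAS8 and FRG1 among them. The 39 members that were neither near a start nor CpG-island-like were raised in at most 7 tables and had a median mean ratio of 1.51, against 1.47 in the 228 that were both. TRIP13 and SRRM3 were the 2 of these 39 raised in 7 tables. With the limit set at a log2 ratio of 2 in place of 1, GAS8, raised in 8 tables, and SRRM1, the gene of a splicing coactivator, raised in 5, were the 2 regions left.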

How the data were processed

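CAPTURE-ChIP-seq tables of K562 cells gave columns for 46 of the 61 samples: 42 guide libraries and 4 of sgGal4. Another 15 samples (7 human, 8 mouse) were not analysed here. Reads with a single alignment to hg19 were kept, per the labels' protocols. Bowtie 1.0.0 and Picard were used, per the submitters' processing notes. How regions were called and levels normalised is not given in the sources used here.

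Every library column deposited by the authors was read as a log2 level, normalised within its table, because its values fall on a line in log2 of whole numbers. Those numbers less 1 were taken as reads. Within 0.01, or 0.01% of larger ones, 100% of values came out whole. The recomputed ratio and the authors' own were at most 1.39e-08 apart. The level of 0 reads was up to 3.68 in sgGal4 replicates 3 and 4 and up to 3.70 in guide libraries, so a log2 ratio is not one of reads.

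In each table a region took the value of its overlapping window with the highest ratio. Regions in full are the 10 raised in the most tables, ties broken by mean ratio, and named besides are the highest mean ratio, members at starts of listed genes and those called chosen after their values were seen. Other loci are listed windows merged over tables. Depth limits the precision, and no test was made, since the rule used the contrast. Alternatives changed the ratio limit, the number of tables, the overlap, the form of the ratio and the libraries. The members and lists were chosen with earlier results of these data known. Scripts used Python 3.11.15, numpy 2.4.6, pandas 2.3.3 and pysam 0.24.0 and were tested on simulated data.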

Additional observations from a re-analysis of the deposited data

Results flagged for a closer look

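Among 71 groups of 4 to 6 libraries at the named regions, 3 (4.23%) held a highest or lowest library whose gap to the next, as a share of the group's range, passed Dixon's critical value. That value is set so that chance passes about 1 in 20 independent groups, and these groups reuse the same 4 sgGal4 libraries. In the sgHBG table at SPHK2, sgHBG replicate 1 had the lowest log2 level, 3.32 with 9 reads, and the median of the other sgHBG libraries was 3.97. In the sgHBD-1kb table at RPS7, sgGal4 replicate 1 was lowest at 1.06 with 1 read, against a median of 2.36. In the sgHS4-sg2 table at CHST2, sgGal4 replicate 4 was lowest at 2.87 with 0 reads, against a median of 4.58.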

How the results depend on the processing

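The count of 316 regions, 243 near a start, was recomputed under each alternative. It stayed within 1.5 times with an overlap of 150 bp (262, 200 near a start), without tables of 1 guide library (243, 187), with 5 or more windows sharing a base (269, 207; chosen after seeing the data) and without the guide libraries of a replicate number (249 to 311, 183 to 241; replicate 1 leaves 14 tables). It moved further with a limit of 2 (2, both near a start), 4 tables (648, 468), 6 tables (145, 113), the difference of mean log2 levels (556, 423), recovered reads per 100000 plus 1 (500, 371), a read in every sgGal4 library (10, 6), without 1 sgGal4 library (180 to 666, 131 to 494), and on sgGal4 replicates 1 and 2 only (1448, 1028; chosen after seeing the data); apart from the changes of limit the cause was not tested. Apart from the settings that left 10 or 2 regions, the near-start share was 71.0% to 78.6%. Without sgGal4 replicate 1, 170 of the 316 were still found, without replicate 2, 163, and without guide replicate 1, 173. For the 10 regions raised in the most tables, 166 of 190 recomputed table counts stayed within 1.5 times and the other 24 fell. The settings of 4 and 6 tables cannot change such a count. Leaving out a guide replicate number touches only the groups that have it. Part of this agreement was therefore fixed in advance. No paired analysis was possible because the result comes from no test: the rule used the contrast of guide against sgGal4. Replicates 3 and 4 of sgGal4, with 25.8% to 40.7% of regions at 0 reads, and guide libraries, with up to 41.5%, limit what the ratios resolve.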
